A study of Mus musculus with 8 samples.

Results

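Peaks of open chromatin at the promoters of genes for mitochondrial respiration and for the mitochondrial ribosome were taken from ATAC-seq tables of mouse bone marrow-derived macrophages (BMDMs). ATAC-seq marks accessible DNA by the insertion of a transposase, and a tag is 1 mapped read. A peak was a member when it lay within 2 kb of a transcription start site (TSS) and the deposited table assigned it to a gene whose symbol begins with Nduf, Uqcr, Atp5, Cox4 to Cox8, or Mrpl or Mrps with a number, or is Sdha, Sdhb, Sdhc or Sdhd. The WT table held 53 such peaks of 53 genes among 9698 peaks, 32 of the respiratory chain and 21 of the mitoribosome. The NCoR f/f table held 118 such peaks of 107 genes among 24867 peaks, 66 of the respiratory chain and 52 of the mitoribosome. WT BMDMs from C57Bl6 mice were kept with vehicle (Veh), with KLA, or with RGFP966 and KLA, and NCoR f/f BMDMs with Veh, with 2 libraries per condition. The labels give 6 h for every condition, which is the time with KLA, whereas the study's methods place the addition of RGFP966 at the start of the serum starvation that came before KLA. KLA (Kdo2 lipid A) is an agonist of the receptor TLR4, and RGFP966 is an inhibitor of the histone deacetylase HDAC3. RGFP966 is named in the titles of its libraries, whereas their treatment label gives KLA alone. NCoR f/f cells carry loxP-flanked alleles of the corepressor NCoR in both copies, without the Cre that deletes them in the study's knockout, and served there as its wild type. Separate mice or cultures are not named in the labels for paired libraries, so each p-value measures the spread between libraries only.

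The respiratory chain sits in the inner mitochondrial membrane. Complex I (Nduf genes) takes electrons from NADH, complex II (Sdh genes) takes them from succinate, complex III (Uqcr genes) passes them to cytochrome c, complex IV (Cox genes) hands them to oxygen, and complex V (Atp5 genes) uses the resulting proton gradient to make ATP. Mitochondrial DNA encodes only a few of these subunits, and the mitoribosome, built from Mrpl (large subunit) and Mrps (small subunit) proteins, translates them. All genes described here are nuclear, and their promoters are known as targets of the factors NRF1, GABPA (an ETS factor), YY1 and the estrogen-related receptors (ERR). In macrophages, TLR4 signals are known to move metabolism from respiration towards glycolysis.

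Promoter sequences of 7 members are given because members differed from other promoters in the shares of some motif letters and in the arrangement of their genes. They are RefSeq sequences on GRCm38 (mm10), 5′ to 3′ on the strand of the gene, and end at the base just before the annotated start. Only bases that no curated exon covers are printed. Capitals mark matches on either strand to NRF1 (GCGCATGC), ETS (CCGGAAGT), YY1 (AAGATGGC), GC box (GGGGCGGG), NF-Y (CCAAT), ERR (AAGGTCA), CRE (TGACGTCA) or AP-1 (TGANTCA). Atp5e and Sdhb each held 3 kinds of motif. The ERR letters of Atp5e, at position 24 after the start, are not among the printed bases. Mrpl3 and Mrps12 were chosen by the same count. Their 2 kinds each were the most among mitoribosome members named for their values, as core genes or for more than 1 promoter peak. Ties were taken in order of name. Other mitoribosome members with a peak, such as Mrpl36 and Mrpl37, held 3 kinds. The second kind of Mrps12, YY1 letters at -199, lies outside its printed bases too. Ndufaf4 and Mrpl32 held the most NRF1 matches, and Cox8a had the only member peak that passed the test in any comparison. Cox8a also held ETS letters at -6, which run past the start, and at 31. Further unmarked matches were NRF1 letters of Ndufaf4 at 1, YY1 letters of Mrpl32 at -242, and NF-Y letters of Mrpl3 at 20 and of Mrps12 at -156.
Atp5e (chr2:174464102-174464351, minus strand): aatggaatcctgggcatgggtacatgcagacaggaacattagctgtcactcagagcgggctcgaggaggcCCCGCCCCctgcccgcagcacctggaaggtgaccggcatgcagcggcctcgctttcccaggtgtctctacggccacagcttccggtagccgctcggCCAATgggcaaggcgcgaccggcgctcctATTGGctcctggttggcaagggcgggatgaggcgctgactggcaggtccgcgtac
Sdhb (chr4:140961021-140961270, plus strand): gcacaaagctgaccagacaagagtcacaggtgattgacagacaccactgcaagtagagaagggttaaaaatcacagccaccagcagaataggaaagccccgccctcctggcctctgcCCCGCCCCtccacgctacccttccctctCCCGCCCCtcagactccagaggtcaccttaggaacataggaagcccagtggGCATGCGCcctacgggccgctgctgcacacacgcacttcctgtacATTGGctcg
Ndufaf4 (chr4:24897833-24898082, plus strand): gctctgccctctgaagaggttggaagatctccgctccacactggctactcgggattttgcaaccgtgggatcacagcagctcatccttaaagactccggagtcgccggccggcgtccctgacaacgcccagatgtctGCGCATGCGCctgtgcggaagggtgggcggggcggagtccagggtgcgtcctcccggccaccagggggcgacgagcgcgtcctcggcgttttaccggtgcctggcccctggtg
Cox8a (chr19:7217617-7217866, minus strand): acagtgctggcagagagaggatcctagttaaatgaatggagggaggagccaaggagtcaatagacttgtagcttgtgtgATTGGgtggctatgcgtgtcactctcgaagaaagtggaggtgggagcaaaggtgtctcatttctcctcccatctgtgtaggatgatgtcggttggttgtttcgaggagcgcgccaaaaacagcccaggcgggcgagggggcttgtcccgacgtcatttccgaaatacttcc
Mrpl3 (chr9:105053018-105053267, plus strand): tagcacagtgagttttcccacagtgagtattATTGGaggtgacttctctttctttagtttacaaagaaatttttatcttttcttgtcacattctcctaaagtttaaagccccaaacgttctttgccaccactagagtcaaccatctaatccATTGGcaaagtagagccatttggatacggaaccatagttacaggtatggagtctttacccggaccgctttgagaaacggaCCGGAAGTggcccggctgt
Mrpl32 (chr13:14613038-14613241, minus strand): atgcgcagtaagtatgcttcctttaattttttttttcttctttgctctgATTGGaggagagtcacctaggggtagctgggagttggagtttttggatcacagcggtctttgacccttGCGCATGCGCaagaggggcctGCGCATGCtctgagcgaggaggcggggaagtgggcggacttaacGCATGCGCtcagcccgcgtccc
Mrps12 (chr7:28741822-28741967, minus strand): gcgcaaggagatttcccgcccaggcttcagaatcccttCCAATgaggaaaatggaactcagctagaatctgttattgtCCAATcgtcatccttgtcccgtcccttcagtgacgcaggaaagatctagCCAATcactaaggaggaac
In the Sdhb promoter, GC boxes began 133 and 105 bases before the start, followed by NRF1 letters at 54 and NF-Y letters at 9 bases. The Ndufaf4 promoter held NRF1 letters on both strands in 1 run of capitals, 113 and 111 bases before the start. The Mrpl32 promoter held such a double match at 87 and 85 bases and further single ones at 66 and 22 bases. Those 204 bases fill nearly the whole gap to the start of Psma2, a proteasome subunit gene read in the opposite direction. The Mrps12 bases lie between its own start and that of Sars2, the mitochondrial seryl-tRNA synthetase gene, and held NF-Y letters at 108, 68 and 19 bases before the Mrps12 start. In the Mrpl3 promoter, ETS letters stood 19 bases before the start.

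A divergent neighbour and NRF1, YY1, ETS or ERR letters, none of them used by the rule, were each found in a larger share of members than of other promoters. Over RefSeq genes and promoters, with both subgroups pooled, the intervals did not overlap, although each trait was held by a minority of members. For ERR letters the mitoribosome interval alone did overlap. Of the 174 protein-coding RefSeq genes that match the rule, 58 (33.3%, Wilson 95% interval 26.8 to 40.6) had the start of a protein-coding gene on the opposite strand within 1 kb upstream or overlapping it by at most 100 bases. The share was the same in the respiratory chain (32 of 96) and the mitoribosome (26 of 78). Of 21600 other protein-coding genes 7.81% (7.46 to 8.17) had such a neighbour, so that the intervals did not overlap. Among genes with a promoter peak in either table the shares were 30.6% (22.7 to 39.8) of 108 members and 10.8% (10.2 to 11.5) of 8523 others. The peaks gave the same order, with 15 of 53 WT member peaks (28.3%, 18 to 41.6) and 33 of 118 NCoR f/f member peaks (28.0%, 20.7 to 36.7) beside such a pair, against 9.38% and 7.44% of the other promoter peaks. Some members stood back to back with each other. Mrpl46 started 42 bases from Mrps11, and Mrpl47 started 302 bases from Ndufb5. Starts in these counts are the outer ends of RefSeq gene records. By these, Ndufs6, a complex I subunit gene, started 21 bases from Mrpl36. The Mrpl36 start used for peaks and motifs lay farther off, and in NCoR f/f Mrpl36 had a peak of its own, at -48 from that start. Ndufaf5, an assembly factor of complex I, started 26 bases from Esf1, Sdhd, a membrane anchor of complex II, 52 bases from Timm8b, and Ndufaf2 59 bases from the DNA repair gene Ercc8. These intervals cover counting error only, and no test of these shares was run.

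NRF1 letters lay in 20 of 158 member promoters of the RefSeq table (12.7%, 8.35 to 18.7), counted from 250 bases before to 50 after the start, against 3.52% (3.28 to 3.77) of 21263 protein-coding promoters. The table covers 147 of the member genes, some with more than 1 start. Within the 200 bases at the peak centre, NRF1 letters were in 18.9% (10.6 to 31.4) of WT member peaks and 5.09% (4.51 to 5.74) of the other promoter peaks, and in 12.7% (7.86 to 19.9) and 3.96% (3.62 to 4.33) in NCoR f/f cells. Among promoters with a peak in either table the NRF1 shares were 13.7% (8.36 to 21.7) of 102 member promoters and 5.69% (5.23 to 6.19) of all 9102. ERR letters lay in 5.66% (1.94 to 15.4) of WT member peaks against 1.32% (1.03 to 1.68), and in 7.63% (4.06 to 13.9) of NCoR f/f member peaks against 1.51% (1.31 to 1.75). Over the RefSeq promoters the ERR shares were 7.59% (4.40 to 12.8) of members and 4.08% (3.82 to 4.35) of all, and those of ETS 10.8% (6.83 to 16.6) and 5.15% (4.86 to 5.45). Among promoters with a peak the ERR shares were 8.82% (4.71 to 15.9) and 2.77% (2.45 to 3.13), whereas the ETS shares were 9.80% (5.41 to 17.1) and 8.32% (7.77 to 8.90), with intervals that overlapped. AP-1 letters, the site of factors that TLR4 activates, were in 6.33% (3.47 to 11.3) of member promoters and 6.99% (6.65 to 7.34) of all. GC boxes and NF-Y letters were in 27.2% (20.9 to 34.6) and 41.1% (33.8 to 48.9) of member promoters, against 22.1% (21.6 to 22.7) and 38.2% (37.5 to 38.9) of all, and these intervals overlapped too. CRE letters were in 3.80% (1.75 to 8.04) and 2.23% (2.04 to 2.44). The median GC content at the peak centre was 64.5% in WT members and 65.5% in the other promoter peaks.

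YY1 letters lay in 14.6% (9.90 to 20.9) of member promoters against 3.05% (2.83 to 3.29) of all protein-coding promoters, and among promoters with a peak in 12.7% (7.6 to 20.6) against 4.32% (3.92 to 4.76). At the peak centre they were in 12.7% (7.86 to 19.9) of NCoR f/f member peaks and 3.20% (2.90 to 3.54) of the other promoter peaks. In WT these shares were 3.77% (1.04 to 12.8) and 2.88% (2.45 to 3.39), and their intervals overlapped. Their place was after the start, with a median position of 22 over 23 member matches, where NRF1 matches had a median of -49. The YY1 letters hold an ATG, and 14 of the 18 member matches on the strand of the gene were the annotated start codon of that gene, among them those of Ndufs4, Ndufs7, Ndufa9, Mrps7 and Atp5j2. In the other protein-coding promoters 164 of 420 such matches were a start codon. With start codons left out, the share was 5.70% (3.03 to 10.5) of member promoters and 2.23% (2.04 to 2.44) of all. A match is a match of letters and says nothing on whether the factor was bound.

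**Figure D1:**
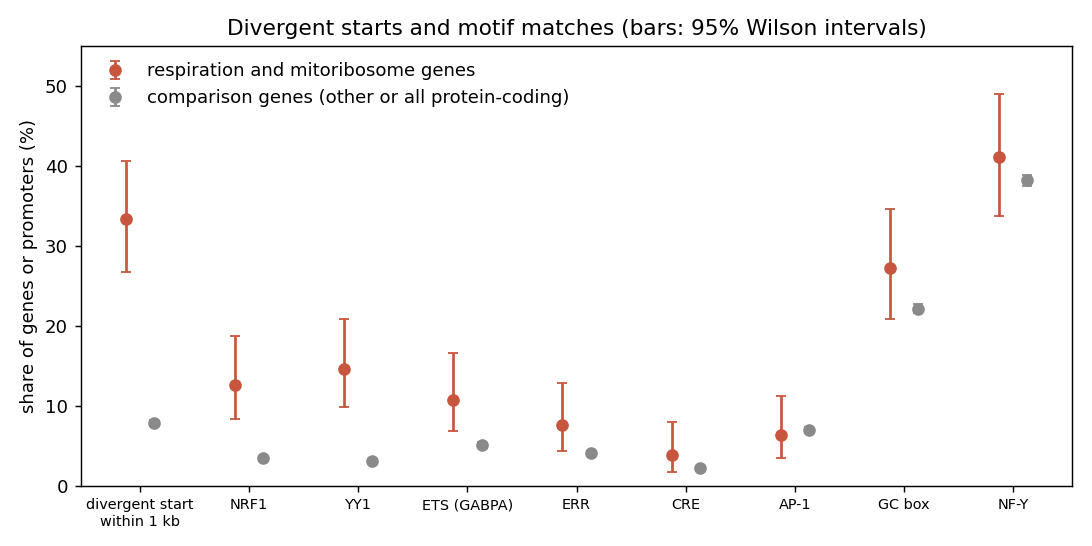
Share of genes with a divergent start within 1 kb (first position) and share of RefSeq promoters that hold each motif, in percent, with Wilson 95% intervals; red points are respiration and mitoribosome genes, grey points other protein-coding genes (divergent starts) or all protein-coding promoters (motifs). The red points for divergent starts (33.3%), NRF1 (12.7%) and YY1 (14.6%) stand clear of the grey points (7.81%, 3.52% and 3.05%), while AP-1 (6.33% and 6.99%) does not.

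The libraries held 116733 to 202523 tags in peaks in WT cells and 372367 and 509741 in NCoR f/f cells, between 1.40% and 2.73% of all tags. A member peak of the WT table held a median of 12 to 20 tags per library, which sets the precision of every value below. Levels are given as tags per 100000 tags in the peaks of the same table, and per kb of peak width where genes are compared. Of 10 macrophage markers, 3 had a promoter peak in WT and 7 in NCoR f/f, and counting peaks at any distance 6 and 10, Spi1, Adgre1, Lyz2 and Mertk lacking one in WT. Their summed level at peaks of any distance was between 0.0608% and 0.0702% of tags in the WT libraries and between 0.0739% and 0.0769% in NCoR f/f. No promoter peak was assigned to any of 15 markers of T cells, B cells and neutrophils or of 5 fibroblast markers in either table. At any distance, 1 T cell, 2 neutrophil and 1 fibroblast marker had a peak in NCoR f/f, each of these lists at 0.00403% of tags or less, and 1 fibroblast marker in WT, at 0.00721% to 0.0111%. The 2 RGFP966 + KLA libraries differed by no more than counting error (chi-square over peaks, divided by its degrees of freedom, 0.937, against 1.10 for the Veh and KLA pairs and 1.07 for NCoR f/f), and calls, medians and the peaks with an unadjusted p under 0.05 were also computed with both summed to 1 library. The 2 tables were made separately and differ in genotype, depth, peak set and a date in the library names, which cannot be told apart, so tests were run within the WT table only.

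A promoter peak was named for 53 genes of the rule in the WT table and for 107 in the NCoR f/f table, 51 of them in both. Leaving out Atp5s, whose symbol is not in RefSeq, these were 29.9% of the 174 genes in WT and 60.9% in NCoR f/f, against 19.5% and 38.8% of all 21900 protein-coding genes. Genes were grouped into complexes by the start of their symbol, and the place of each protein was not checked. Complex I assembly factors had the highest share in WT (5 of 8), and complex III in NCoR f/f (7 of 8). Complex IV, several of whose genes are tissue-specific isoforms, had 4 of 18 in WT and 9 of 18 in NCoR f/f. Core genes with a peak in both tables were Ndufv1 of complex I, Sdhb of complex II, Uqcrc2 and Uqcrfs1 of complex III, Cox5b, Cox7c and Cox8a of complex IV, Atp5b and Atp5c1 of complex V, and Mrpl44 and Mrps35 of the mitoribosome. Ndufs7, Sdhd, Uqcrc1, Uqcrh, Cox4i1, Cox5a, Mrpl12, Mrpl3 and Mrps12 had one in NCoR f/f alone. Ndufs1, Ndufa9, Ndufaf1, Sdha, Sdhc, Cox6c, Atp5a1, Mrpl11, Mrps7 and Mrps5 had none in either.

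Part of these gaps lay in the naming of peaks. Since the table gives a peak to 1 gene, a peak between back-to-back genes counts for the nearer one. In NCoR f/f, 26 further rule genes had their RefSeq start within 1 kb of the centre of a peak named for another gene, among them Ndufs1 (named Eef1b2), Sdha (Ccdc127), Atp5a1 (Haus1) and Mrps7 (Gga3). Counted by position, 122 of 174 starts (70.1%) were near a peak in NCoR f/f and 64 (36.8%) in WT. The same stretch could also carry different names in the 2 tables. The peak between Mrpl47 and Ndufb5 was called Mrpl47 in WT and Ndufb5 in NCoR f/f, and the one between Sars2 and Mrps12 was Sars2 in WT and Mrps12 in NCoR f/f.

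**Figure D2:**
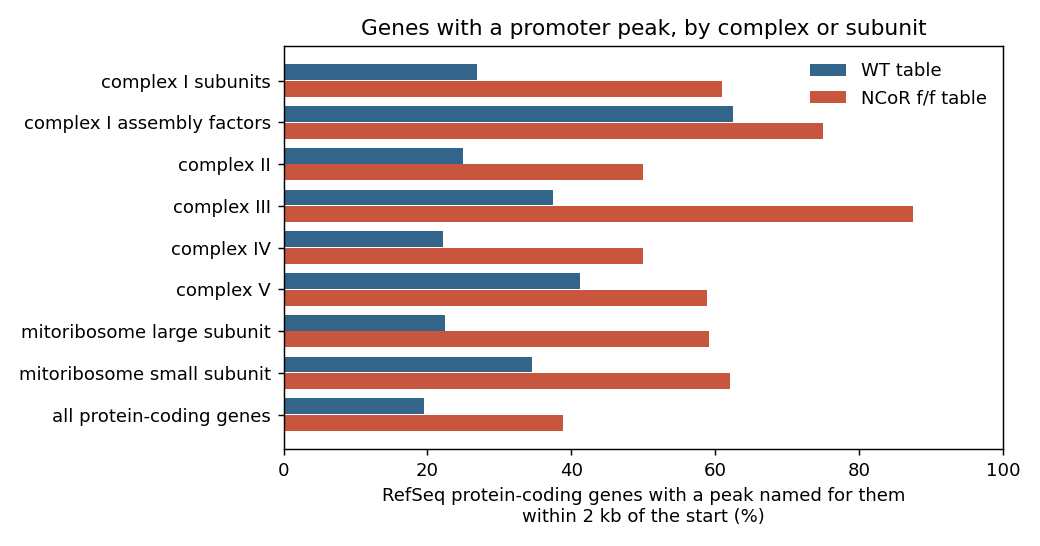
Share of the RefSeq protein-coding genes of each complex or ribosomal subunit that had a promoter peak named for them (percent, horizontal axis from 0), in the WT table (blue) and the NCoR f/f table (red), with all protein-coding genes in the last row. In NCoR f/f every complex or subunit lies above the last row (38.8%), from 50.0% for complexes II and IV to 87.5% for complex III.

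The window of the rule was of little weight for the WT members. Of the 53 WT peaks, 49 (92.5%) lay within 200 bases of the TSS, compared with 78.8% of 4860 other promoter peaks, and 52 were annotated as promoter-TSS. The farthest inside were Ndufa13 (-659, that is, upstream of the TSS) and Mrpl48 (340, downstream). The nearest peaks beyond 2 kb belonged to Ndufb7 (6548 bases), with 3 to 16 tags per library, and Mrps27 (8574 bases), with 15 to 41 tags. In NCoR f/f the farthest inside were Ndufa4l2 (-1959) and Ndufs8 (-1917), and the nearest outside was Sdhb (2917 bases), with 13 and 16 tags.

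At Veh the 53 WT members were spread over about the range of other promoters, with a median of 33.6 tags per 100000 per kb (quartiles 28.7 and 42.6) against 35.7 (26.8 and 47.7) for other promoter peaks and 26.6 for distal peaks. Respiratory chain and mitoribosome peaks had medians of 32.0 and 35.9. Mrps14, of the small subunit, had the highest level per kb at 76.9, followed by Mrpl17 at 74.9, Atp5g1, a gene for the membrane ring of complex V, at 63.5, and Cox7c at 61.4. Mrps17 (18), Mrps28 (19.2) and Ndufa8 (19.9) had the lowest. The Mrps14 peak, 341 bases wide, held 41 and 25 tags at Veh, and the Mrps17 peak, 202 bases wide, 3 and 6, so the ends of this order did not overlap. The libraries of Mrps14 and Mrpl17 overlapped per kb. In complex I the highest level was that of Ndufa5 (55.4), in complex III that of Uqcrfs1 (47.2) and the lowest that of Uqcrq (21.7), and in complex V the lowest was that of Atp5g3 (23.7). Sdhb, the only complex II member in WT, had 36.8.

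The summed share of tags at member promoters was about the same in every WT library. In WT cells it was 0.558% and 0.538% with Veh, 0.573% and 0.559% with KLA, and 0.550% and 0.551% with RGFP966 + KLA. The Veh and KLA libraries did not overlap, by a narrow margin, and their means were 0.548% ± 0.0136 and 0.566% ± 0.00938 (SD, n = 2). With 2 libraries against 2, an exact permutation test cannot give a two-sided p below 0.33, and none was run. Respiratory chain promoters took 0.326% ± 0.000902, 0.328% ± 0.00385 and 0.327% ± 0.0140 with Veh, KLA and RGFP966 + KLA. Mitoribosome promoters took 0.222% ± 0.0145, 0.238% ± 0.00553 and 0.224% ± 0.0126. Within the mitoribosome, the 10 small subunit promoters took 0.0969% and 0.0933% with Veh, 0.113% in each KLA library, and 0.119% and 0.105% with RGFP966 + KLA, so that Veh was below both other conditions, while the 11 large subunit promoters took 0.135% and 0.118%, 0.129% and 0.121%, and 0.114% and 0.110%. Sdhb took 0.0109% and 0.0107%, 0.00963% and 0.0103%, and 0.00741% and 0.00772%, highest with Veh and lowest with RGFP966 + KLA, without overlap. Over the same libraries all promoter peaks took 59.1% and 56.7% with Veh, 56.5% and 54.9% with KLA, and 54.8% and 54.9% with RGFP966 + KLA. In NCoR f/f cells the member share was 0.570% and 0.541%, but it sums 118 peaks over the total of another peak set and so is not the same measure as the WT share.

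**Figure D3:**
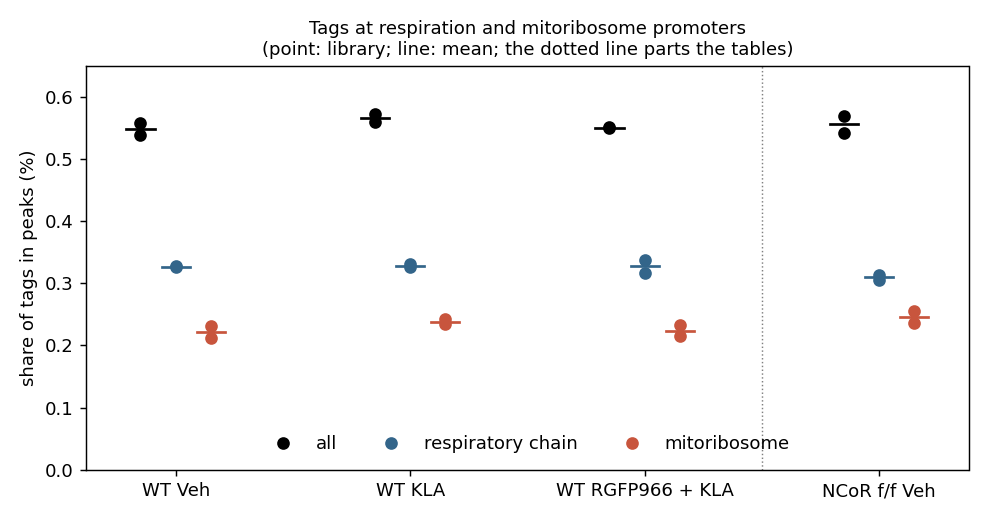
Share of tags in peaks at all member promoters (black), respiratory chain promoters (blue) and mitoribosome promoters (red), in percent from 0, with 1 point per library and a line at the mean of each condition; the dotted line parts the WT from the NCoR f/f table. Black points stay between 0.538% and 0.573% in all 8 libraries, but sum 53 peaks in WT and 118 in NCoR f/f, over different totals.

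KLA left no member promoter past the test. Of the 53 peaks, 0 were called with KLA against Veh at an adjusted p under 0.05 and a change over 2-fold (edgeR quasi-likelihood test, Benjamini-Hochberg adjustment over all 9698 peaks), where 5.03% of all peaks and 2.38% of promoter peaks were called. DESeq2, which took a wider spread from the same libraries, called 0 members and 0 of all peaks. An unadjusted p under 0.05 was reached by 3 members (5.66%), compared with 19.5% of all peaks and 12.9% of promoter peaks. The libraries of the 2 conditions did not overlap at 24 members (45.3%), near the 47.9% of all peaks. The median log2 fold change was -0.04 for the respiratory chain and 0.09 for the mitoribosome, against 0.02 over all peaks and -0.05 over all promoter peaks. The fold changes ran from -0.86 (Cox8a) to 1.18 (Mrps17), and the middle of the members lay between -0.28 and 0.22 (quartiles). At this depth the 95% interval of a peak reached a median of 0.78 to either side, and at 21 of the 53 members it lay inside 2-fold in both directions. At the other 32 the interval still held a 2-fold difference in at least 1 direction.

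RGFP966 + KLA against KLA gave 0 called members (edgeR, and also 0 in DESeq2), with 0.34% of all peaks and 0.20% of promoter peaks called. An unadjusted p under 0.05 was reached by 4 members (7.55%), compared with 13.8% of all peaks, and non-overlapping libraries by 21 members (39.6%), compared with 45.8%. The median log2 fold change was 0.03 for the respiratory chain and -0.11 for the mitoribosome, against 0.03 over all peaks, and 30 intervals lay inside 2-fold. RGFP966 + KLA against Veh gave 1 called member, Cox8a, which fell, where 9.88% of all peaks and 4.70% of promoter peaks were called. An unadjusted p under 0.05 was reached by 3 members (5.66%), compared with 25.4% of all peaks, and non-overlapping libraries by 24 (45.3%), compared with 54.7%. The medians were -0.01 for the respiratory chain and 0.02 for the mitoribosome, against 0.04 over all peaks. These 3 comparisons share libraries in pairs. Scaling to all tags of a library instead of tags in peaks shifts the median of all peaks to 0.21 for RGFP966 + KLA against KLA and 0.14 against Veh, the respiratory chain medians to 0.21 and 0.09, and the mitoribosome medians to 0.07 and 0.11, the first of which was below 0 as reported above. With the 2 RGFP966 + KLA libraries summed to 1, the number of called members stayed at 0 and 1 in these comparisons, and 4 members in each had an unadjusted p under 0.05. The medians were then 0.03 and -0.11 against KLA and -0.01 and 0.02 against Veh.

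**Figure D4:**
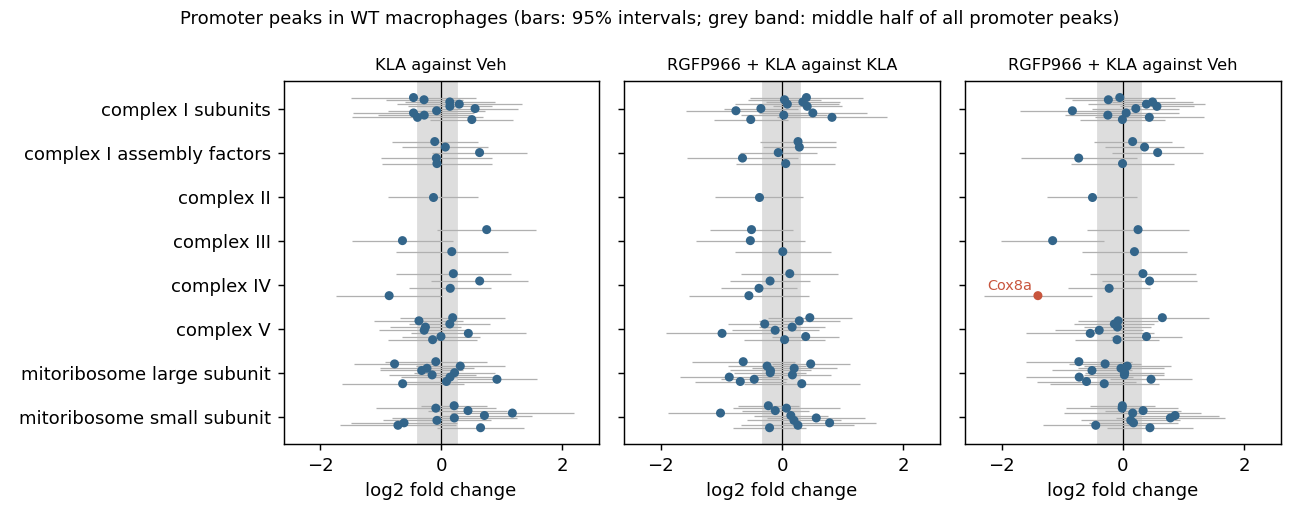
Log2 fold change (horizontal axis) of each of the 53 WT member peaks by complex or ribosomal subunit, in the 3 comparisons, with 95% intervals as grey bars; the grey band spans the quartiles of all 4913 promoter peaks and the red point is the called peak. Most points sit in or near the band around 0, and only Cox8a, at -1.40 for RGFP966 + KLA against Veh, is called.

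Cox8a encodes a nuclear subunit of complex IV, and its peak (chr19:7217611-7217812, promoter-TSS, -95 from the TSS) held 11 and 16 tags with Veh, 9 and 9 with KLA, and 5 and 11 with RGFP966 + KLA. Per 100000 tags in peaks these were 8.53 and 13.2, 4.81 and 7.71, and 2.47 and 5.66. Both Veh libraries stood above both libraries of each other condition, and the KLA and RGFP966 + KLA libraries overlapped. Against Veh the peak fell by 1.40 on the log2 scale with RGFP966 + KLA (SE 0.44, edgeR adjusted p = 0.0326), and with KLA alone its value was -0.86 (SE 0.43, edgeR adjusted p = 0.265). Of the WT conditions, only Veh had it as a reproducible peak, so the same tags chose the peak and gave these values. The call was lost without the second Veh library (-1.07), without the first RGFP966 + KLA library (-0.92), with all tags as library size (-1.29) and in DESeq2 (-1.47, unadjusted p = 0.042, adjusted p = 0.628). With the 2 RGFP966 + KLA libraries summed to 1 it stayed called (-1.41, adjusted p = 0.0424). In NCoR f/f cells at Veh, a wider Cox8a peak held 14 and 33 tags, an uneven pair.

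Uqcrfs1, the Rieske iron-sulfur protein of complex III, had values in the same order without passing the test, and its peak too was reproducible in the Veh condition only. Its peak held 15 and 12 tags with Veh (11.6 and 9.91 per 100000), 13 and 8 with KLA (6.95 and 6.85), and 6 and 13 with RGFP966 + KLA (2.96 and 6.69). The conditions did not overlap in any pairing, and the log2 fold change of RGFP966 + KLA against Veh was -1.16 (SE 0.42, adjusted p = 0.0677). It was -0.68 without the first RGFP966 + KLA library, -1.84 without the second, and -1.16 with both summed (edgeR adjusted p = 0.0787). Atp5g3, another gene of the complex V membrane ring, had 5.43 and 4.13 per 100000 with Veh, 6.42 and 6.85 with KLA, and 3.46 and 3.09 with RGFP966 + KLA, with a log2 fold change against KLA of -0.99 (SE 0.46, adjusted p = 0.351, and 0.375 with those 2 libraries summed). Its sister genes of the ring did not share that value, Atp5g1 being at 0.17 and Atp5g2 at -0.11 in the same comparison. The Atp5g3 peak was reproducible in the KLA condition only. Sdhb, the iron-sulfur subunit of complex II, held 14 and 13 tags with Veh, 18 and 12 with KLA, and 15 and 15 with RGFP966 + KLA, with log2 fold changes of -0.13 with KLA and of -0.38 when RGFP966 was added to KLA. Among complex I subunits, Ndufv1, of the NADH-binding module, had the highest value for RGFP966 + KLA against KLA at 0.82, which did not pass the test.

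Mitoribosome peaks supplied most of the members with an unadjusted p under 0.05, on both sides and in different comparisons. Their shares were 14.3% with KLA, 14.3% for RGFP966 + KLA against KLA and 4.76% against Veh. All promoter peaks had 12.9%, 10.95% and 17.6%, and all peaks 19.5%, 13.8% and 25.4%. The Mrpl47 peak, which lies between Mrpl47 and Ndufb5, held 15 and 11 tags with Veh, 36 and 24 with KLA, and 27 and 30 with RGFP966 + KLA. Per 100000 tags in peaks these were 11.6 and 9.08, 19.2 and 20.6, and 13.3 and 15.4, without overlap between conditions. Its log2 fold change with KLA was 0.92 (SE 0.33, adjusted p = 0.0872). The Mrps17 peak, reproducible in the KLA condition only, held 3 and 6 tags with Veh, 16 and 9 with KLA, and 6 and 10 with RGFP966 + KLA. It gave 1.18 (SE 0.51, edgeR adjusted p = 0.179) with KLA and -1.01 (SE 0.43, edgeR adjusted p = 0.278) for RGFP966 + KLA against KLA. The value with KLA was 0.72 without the first Veh library and 1.79 without the second, and that for RGFP966 + KLA against KLA was -0.67 without the first RGFP966 + KLA library and -1.02 with both summed (adjusted p = 0.325). Its Veh count of 3 tags was the lowest of any WT member peak, a count that Ndufa13 reached in 1 KLA library. For Mrpl17 the order was reversed, with 29 and 19 tags at Veh and 16 and 18 with KLA (-0.77, SE 0.34, adjusted p = 0.187), and its value was -0.48 without the first Veh library, -0.31 without the first KLA library and -1.16 without the second.

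Other mitoribosome members reached an unadjusted p under 0.05 in a comparison with RGFP966 + KLA. Mrps33 had 6.95 and 5.14 per 100000 with KLA and 13.8 and 7.72 with RGFP966 + KLA (0.79, SE 0.38, adjusted p = 0.348). Without the first RGFP966 + KLA library this value was 0.30, without the second 1.13, and with both summed 0.79 (adjusted p = 0.358). Mrpl44 had 12.3 and 6.85 with KLA and 7.90 and 3.09 with RGFP966 + KLA, which overlapped (-0.87, SE 0.41, adjusted p = 0.325, and 0.353 with the libraries summed). Mrps22 had 7.75 and 7.43 with Veh, 11.2 and 14.6 with KLA, and 15.3 and 12.4 with RGFP966 + KLA, and a log2 fold change against Veh of 0.86 (SE 0.36, adjusted p = 0.121, and 0.134 with the libraries summed). Its RGFP966 + KLA libraries overlapped those with KLA (0.15). By contrast Mrps14, the deepest member with 25 to 63 tags, had 0.22 for KLA against Veh (95% interval -0.33 to 0.76) and -0.01 for RGFP966 + KLA against Veh.

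**Figure D5:**
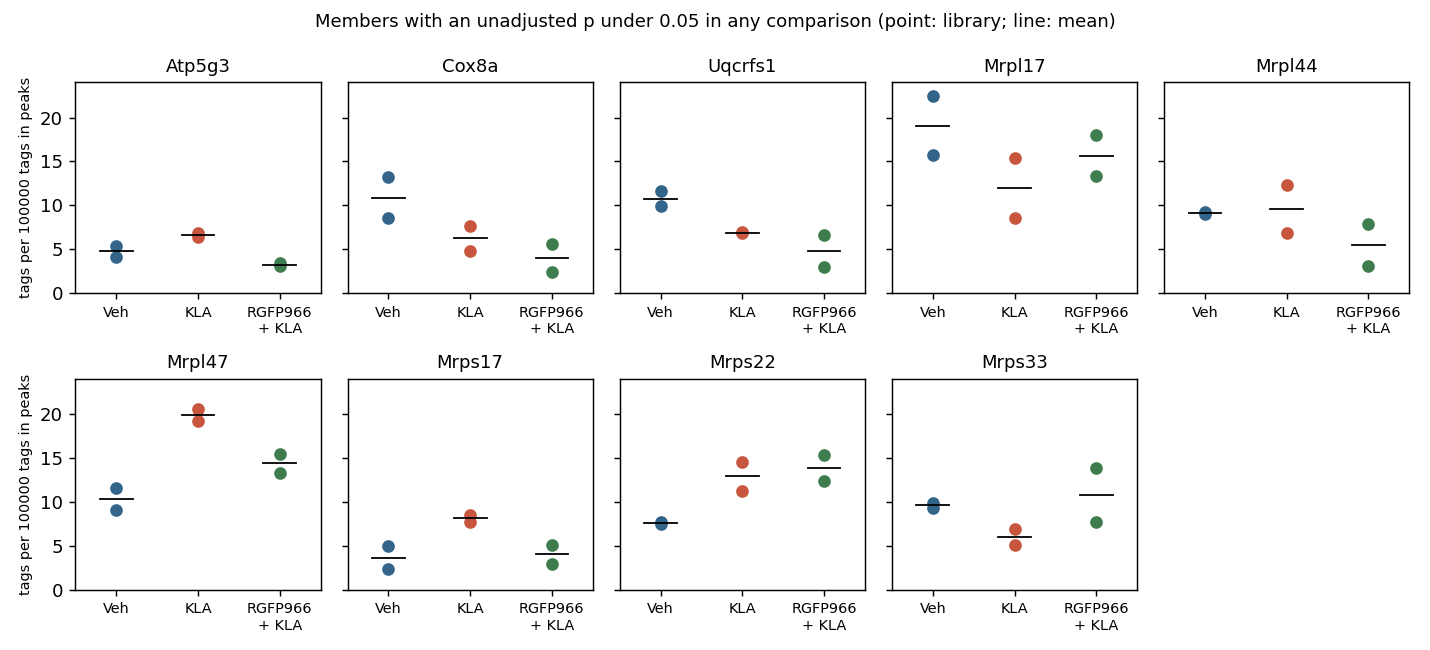
Tags per 100000 tags in peaks (vertical axis from 0) of the 9 member peaks with an unadjusted p under 0.05 in any WT comparison, with 1 point per library and a line at the mean of 2. Cox8a and Uqcrfs1 are highest with Veh, Mrpl47 and Mrps17 with KLA, and the 2 points of a condition are far apart at Mrpl17 and Mrps33.

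In some comparisons the signs of these values followed the set of libraries in which a peak had been found, and in others they were mixed. The authors merged reproducible peaks of each condition, and 20 of the 53 members (37.7%) were in the sets of all 3 conditions, close to the 39.0% of other promoter peaks and above the 17.1% of distal peaks. Cox8a, Uqcrfs1 and Mrpl48 were in the Veh set alone, and all 3 had lower values with RGFP966 + KLA than with Veh, from -1.40 to -0.60. Atp5g3, Mrpl15, Mrps17 and Ndufaf7 were in the KLA set alone, and all 4 had lower values with RGFP966 + KLA than with KLA, from -1.01 to -0.64. The 10 members in the RGFP966 + KLA set alone, among them Ndufv1, Ndufs6, Cox5b and Mrps35, all had higher values than with KLA, from 0.01 to 0.82. The Veh set was also lower at all 3 for RGFP966 + KLA against KLA. For KLA against Veh the Veh set had 1 higher and 2 lower, the KLA set 2 and 2, and the RGFP966 + KLA set 4 and 6. For RGFP966 + KLA against Veh the KLA set had 1 higher and 3 lower, and the RGFP966 + KLA set 6 and 4. The same tags chose the sets and gave the fold changes, and how far this moved the values was not tested.

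More of the group had a peak in the NCoR f/f table, whose peaks were merged over KLA and knockout conditions too. All 53 WT member peaks overlapped an NCoR f/f peak by at least 1 base, 52 of them a member and 1 (Ndufaf7) a peak named for its divergent neighbour Cebpz. Of the 118 NCoR f/f members 56 overlapped a WT peak, and their median level was 6.22 tags per 100000, compared with 3.44 for the 62 without. Per kb, Atp5e, a small subunit of the complex V catalytic part, had the highest level of all at 33.8, with 30 and 45 tags, followed by Mrpl39 (32.5), Mrpl41 (32.1), Mrpl17 and Mrps14 (28.3). The peaks of Mrpl3 were among the lowest at 6.59 (10 and 6 tags) and 5.89 (7 and 4), as were Uqcrc1 (6.54) and Mrps25 (7.10, with 8 and 7 tags). Across the 53 overlapping peaks the Veh levels per kb of the 2 tables had a Spearman rho of 0.37, a description only, since the points share peak widths and counts of few tags. Cox8a, with the sixth highest level per kb in WT, had 54.1 there and 10.8 in the NCoR f/f table, whose peak was 476 bases wide against 201. The level of 81.4% of NCoR f/f members rested on peaks found in its own Veh set, and the others were found with KLA or in NCoR knockout cells, whose libraries were not analysed here.

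Some members had more than 1 promoter peak, and all of these were in the NCoR f/f table (Ndufs8, Ndufaf3, Cox7a2l, Cox7c, Atp5d, Mrpl3, Mrpl48, Mrps18b, Mrps28 and Mrps36). At Ndufs8, an iron-sulfur subunit of complex I, the peak at -87 from the TSS held 36 and 47 tags, that at -1917 held 13 and 15, and that at 304 held 11 and 17. At Cox7c the peak at -50 held 18 and 31 tags and that at 297 held 8 and 8. Mrps28 had 21 and 30 tags at -20 and 14 and 29 tags at 347, which overlapped. The peak with the most tags lay nearest the TSS at Ndufs8 and Cox7c, but not at Cox7a2l, with 20 and 24 tags at -287 and 8 and 17 at -10. At Mrps18b the peak at -374 held 22 and 35 tags and that at 46 held 18 and 17.

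Genes that act beside the members gave no called peak in WT. Of 40 assembly factors and partners of respiration 14 had a promoter peak in WT and 29 in NCoR f/f, and of 15 partners of mitochondrial translation 2 and 9. None of their 17 WT promoter peaks was called in any comparison (edgeR), where 5.03%, 0.34% and 9.88% of all peaks were, so that few calls or none would be near the background for so short a list. An unadjusted p under 0.05 was reached 3 times in all, 0 times with KLA, 2 for RGFP966 + KLA against KLA and 1 against Veh, compared with 19.5%, 13.8% and 25.4% of all peaks. Those were Foxred1, a complex I assembly factor (-0.74), and Coq7, an enzyme of coenzyme Q synthesis (-0.94), for RGFP966 + KLA against KLA, and Coq7 again (-0.94) against Veh, each at its peak at -27. A second Coq7 promoter peak, at 371, had values of the opposite sign, 0.32 and 0.95, and did not pass the test. Of 14 nuclear regulators 6 had a WT promoter peak and 12 an NCoR f/f one, and none of the 7 WT peaks was called (edgeR), with an unadjusted p under 0.05 in 2 with KLA, 1 with RGFP966 + KLA against KLA, and 2 against Veh. The 1 against KLA was Myc, whose peak at -1867 held 3 and 4 tags with KLA and 11 and 12 with RGFP966 + KLA (1.30, SE 0.51, edgeR adjusted p = 0.267). Esrra, the gene of ERRα, had 10.1 and 7.43 tags per 100000 with Veh, 4.81 and 5.14 with KLA, and 3.95 and 4.12 with RGFP966 + KLA, which did not overlap Veh (-1.11, SE 0.44, adjusted p = 0.105). Yy1 had 22.5 and 15.7, 12.8 and 9.42, and 9.38 and 13.9 at its peak at -406 (-0.73, SE 0.33, adjusted p = 0.195 with KLA), whereas its peak at 915 had 0.56 with KLA. Tfb2m, a mitochondrial transcription factor gene, had 14.7 and 7.43 with Veh and 17.6 and 21.4 with KLA (0.77, SE 0.34, adjusted p = 0.183), and Tfam, which packs mitochondrial DNA, had 10.1 and 9.08, then 11.8 and 10.3.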

How the data were processed

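ATAC-seq of BMDMs gave 8 libraries, 6 of WT and 2 of NCoR f/f cells. The deposited tables hold raw tag counts per merged peak on mm10, for which the authors mapped reads with Bowtie2, called peaks with HOMER, kept those reproducible (IDR) between the 2 most correlated samples of a condition, merged conditions and counted at most 3 tags per base position. Since the peaks were found in these libraries, a peak of low level is seen only where some condition was high enough, and counts per peak are small.

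Counts of the 6 WT libraries were fitted together with the quasi-likelihood test of edgeR 4.0.16 (R 4.3.3, limma 3.58.1), with total tags in peaks as library size and a minimum of 4 tags in at least 1 library. All 53 members passed this filter. Called means a Benjamini-Hochberg adjusted p under 0.05 and a change over 2-fold. SE is the log2 fold change divided by the square root of its F, and intervals are 95%. The median edgeR quasi-dispersion was 0.977, about counting error alone, and the median DESeq2 1.42.0 dispersion 0.125. Both tools were run on simulated counts of known change, with a dispersion far below 0.125. That run cannot decide between their calls here. Library depth is given as tags in peaks. NCoR f/f counts are given as values without a test.

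Named are members called, members with an unadjusted p under 0.05 and libraries that do not overlap, the highest and lowest of each complex, a list of core genes, genes with more than 1 promoter peak, and divergent pairs. Mrpl44 and members listed by peak set were named after their values were seen. Promoters, gene starts and coding starts are from RefSeq on GRCm38.p6, motifs are literal letters on both strands, and shares have Wilson intervals. Members and lists were chosen with earlier results of these data known. The counts of divergent starts, of start codons and of letters at peak centres, the added promoters, the chi-square check and the summed RGFP966 + KLA library were added after the data were seen. The other alternatives were other normalizations, DESeq2, other filters, the replicate block, 1 library left out, a window of 1 kb and a fold of 1.5. Other libraries of the study were not analysed here.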

Additional observations from a re-analysis of the deposited data

How the results depend on the processing

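Of 53 counts of called members under other settings, 48 were as reported. For RGFP966 + KLA against Veh the count was 0 with library size from all tags and in DESeq2 with either size factors, and 0 to 1 with 1 library left out, the calls being lost without the second Veh or the first RGFP966 + KLA library. Medians moved by less than the SD between replicates in 50 of 50 alternatives for the mitoribosome, where that SD was 0.283, and in 36 of 50 for the respiratory chain, where it was 0.0402. Held to 0.0402, 30 of 50 mitoribosome medians moved by less. For KLA against Veh the mitoribosome median (0.0878) ran from -0.1221 without the first KLA library to 0.2156 with a filter of 16 tags. For RGFP966 + KLA against KLA (-0.1112) it ran from -0.1909 with that filter to 0.0679 with library size from all tags, and against Veh (0.0236) from -0.0898 without the first RGFP966 + KLA library to 0.1098 with all tags, so that its sign turned in each comparison. The respiratory chain median for KLA against Veh was -0.0989 with library size from all tags, 0.0704 with a filter of 16 tags, and -0.039 to 0.0837 with 1 library left out. That for RGFP966 + KLA against KLA was -0.0075 with TMM factors, 0.2077 with all tags, and -0.092 to 0.0344 with 1 library left out. That for RGFP966 + KLA against Veh was -0.0628 with TMM factors, 0.0943 with all tags, -0.0571 in DESeq2 with its own size factors, and -0.0667 to 0.1436 with 1 library left out. All tags as library size moved the median of all peaks to -0.05, 0.21 and 0.14. The NCoR f/f share was 0.516% with only the peak nearest each TSS. The causes were not tested.

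Replicate numbers did not pair the libraries, since differences within groups correlated by 0.0336, 0.0233 and 0.0138 over 7354 peaks. With the replicate block 0, 0 and 1 members were called and the respiratory chain median for KLA against Veh was 0.0128, and calls over all peaks were 558, 56 and 1036 (488, 33 and 958 without it).

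Calls over all peaks in turn for KLA against Veh, RGFP966 + KLA against KLA and RGFP966 + KLA against Veh were 0, 0 and 0 in DESeq2 with its own size factors and 0, 0 and 1 with total tags, against 570, 144 and 742 at an unadjusted p under 0.05 with the former. They were 305, 53 and 711 with library size from all tags, 526, 87 and 785 with loess offsets, 371, 28 and 623 with a filter of 16 tags, and 395, 57 and 1006 with only the 4 libraries compared. With 1 library left out they were 155 to 394, 0 to 60 and 319 to 1002, and with the RGFP966 + KLA libraries summed 4 and 788 for the comparisons that use them. A library left alone in its group was assumed to vary like the others. At 12 to 20 tags per member, changes under 2-fold were mostly beyond reach.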
